A study of Anas platyrhynchos with 2 samples.

Results

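Among the 288 mature miRNAs of a duodenal small RNA table, 3 rows belonged to the miR-148/152 family or to miR-122. They were chosen by name, as every row whose name is miR-148a, miR-148b, miR-148c, miR-152 or miR-122 once the species prefix and the arm are taken off. The rows found were gga-miR-148a-3p (660088 counts in CC and 715381 in CT), gga-miR-122-5p (1204 and 1091) and gga-miR-122-3p (6 and 3), where CC and CT are the libraries described below, so that 1 arm of miR-148a and both arms of miR-122 were measured. Other arms and relatives of miR-148a were not analysed here. The samples were duodenum of female Jingjiang ducks aged 1 day, a domestic breed kept for eggs, out of a study of 20 birds. All birds were put in carrying cases for young poultry. The control birds stayed where they were and their duodenum is described as normal. The other birds travelled 8 h by vehicle over ordinary and rough roads at 40 to 70 km per h, and their duodenum is described as having mucosal damage from transport stress.

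Each condition is represented by 1 small RNA library, and the sources used here do not give the number of birds behind it. The libraries are named CC and CT, which were read as control and transported from their last letters alone. No label spells these names out, and CT could also abbreviate control, so directions are given between CC and CT and not between conditions. CC held 5772509 counts and CT 5272666. Single libraries allow no check against replicates, and no p-value was computed. All intervals are exact 95% intervals that cover counting error only, without the spread between birds or from library preparation. Intestinal epithelium markers fitted the labelled tissue, since the rows of miR-215, miR-194, miR-200a, miR-200b, miR-429 and miR-31 took 45.4% of the CC counts and 50.9% of the CT counts together. Most of this was miR-215-5p alone, at 40.6% and 43.5%, while miR-31-5p took 0.00376% and 0.00599%.

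MicroRNAs are short RNAs cut from a hairpin precursor, which can give a product from its 5′ arm (5p) and one from its 3′ arm (3p). Usually 1 arm is loaded into an Argonaute protein and kept while the other is degraded, and the loaded strand recognises messenger RNAs mainly through its seed, bases 2 to 8. miR-148a is abundant in the digestive organs of mammals, among them liver, pancreas and gut, and in human cells it represses the DNA methyltransferase DNMT1 and the LDL receptor. miR-122 is the dominant miRNA of the vertebrate hepatocyte, where it regulates cholesterol and lipid metabolism in mice. In mammals it is scarce outside the liver, so that it serves as a marker of hepatocytes and, in plasma, of liver injury.

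The mature sequences are shown because they set which messenger RNAs each member can recognise and which rows could share its reads. They are the chicken sequences listed in the deposited table, from 5′ to 3′, with the seed in capitals.
miR-148a-3p: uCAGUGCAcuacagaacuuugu
miR-122-5p: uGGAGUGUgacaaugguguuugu
miR-122-3p: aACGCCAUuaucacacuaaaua

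The members had 3 different seeds, and no other row of the table carried any of them at bases 2 to 8. The 2 miRNAs with 22 nt had the most common length in the table, shared by 135 rows, and miR-122-5p had 23 nt. The nearest other row to miR-148a-3p was 8 base edits away, that to miR-122-5p also 8 edits, and that to miR-122-3p 10 edits, so no near-identical row was listed with which reads could be confused. Guanine and cytosine made up 40.9% of miR-148a-3p, 43.5% of miR-122-5p and 31.8% of miR-122-3p.

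The hairpins show where the arms lie and which strand opposite miR-148a-3p has no row under the rule. The listed arms are in capitals.
gga-mir-148a: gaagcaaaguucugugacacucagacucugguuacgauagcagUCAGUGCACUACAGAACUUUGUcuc
gga-mir-122-2: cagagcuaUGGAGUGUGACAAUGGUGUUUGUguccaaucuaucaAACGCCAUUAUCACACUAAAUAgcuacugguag

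Both hairpins folded into a stem with a single end loop when predicted with RNAfold at its default settings. The mir-148a hairpin of 68 nt had a predicted free energy of -25.4 kcal per mol and a loop of 7 nt, and the mir-122-2 hairpin of 77 nt had -36.8 kcal per mol and a loop of 12 nt. miR-148a-3p occupied bases 44 to 65 of its hairpin, with 19 of its 22 bases paired to the stretch from base 4 to base 25. miR-122-5p occupied bases 9 to 31 and miR-122-3p bases 45 to 66, each with 19 paired bases. The table gives no genome position for any row with a chicken name, so these hairpins are not placed on a chromosome here.

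miR-148a-3p was one of the leading miRNAs of the duodenum in both libraries. It had 660088 counts in CC and 715381 in CT, equal to 114350 and 135677 CPM (counts scaled to a library total of 1000000). The library share was 11.4% in CC (interval 11.4 to 11.5%) and 13.6% in CT (13.5 to 13.6%). It ranked 3 by count in CC and 2 in CT, because the predicted row novel_1 was above it in CC and below it in CT. novel_1 had 946093 counts in CC and 579436 in CT. miR-215-5p, an intestinal epithelial miRNA and first in both libraries, lay far above it, and miR-21-5p, a miRNA induced in injured and inflamed tissue, was next below both of these rows with 442194 and 349590 counts. The intervals of miR-148a-3p met those of none of these neighbours in either library. In CC the counts of miR-148a-3p exceeded the sum of the 274 least abundant rows, and in CT that of the 277 least abundant rows. When the other 9 of the 10 most abundant miRNAs are left out of the total, miR-148a-3p alone made up 43.0% of the remaining CC counts and 48.3% of the remaining CT counts.

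miR-122-5p was a clear but minor component. It had 1204 counts in CC and 1091 in CT, or 209 CPM (interval 197 to 221) and 207 CPM (195 to 220). That is 0.0209% of the CC library (0.0197 to 0.0221%) and 0.0207% of CT (0.0195 to 0.0220%). The level was nearly equal in both libraries and the intervals overlapped almost completely. It stood at place 69 in both libraries, among 270 rows with at least 1 count in CC and 271 in CT. All rows below it together held 0.347% of the CC counts and 0.404% of the CT counts.

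The neighbours of miR-122-5p in the order of mean CPM were closer in CC than in CT. Next above it were miR-23b-3p with 1215 counts in CC and 1314 in CT and miR-106-5p, of the proliferation-linked miR-17 family, with 1229 and 1240. Next below were miR-140-5p, a miRNA of cartilage and mesenchyme, with 1259 and 934, and miR-181b-5p, found in lymphocytes among other cells, with 1221 and 773. In CC all 4 had intervals that overlapped with that of miR-122-5p, so their order there is not resolved by the counts. In CT none of the 4 did, with the first pair above and the second pair below miR-122-5p.

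miR-122-3p was at the edge of detection, with 6 counts in CC and 3 in CT. The level was 1.04 CPM (interval 0.381 to 2.26) in CC and 0.569 CPM (0.117 to 1.66) in CT. Its rank was 194 in CC, a count shared by 6 rows, and 216 in CT, a count shared by 12 rows. The rows next to it in the order of mean CPM, let-7c-3p, miR-7b, miR-92-5p and miR-181b-2-3p, had 2 to 7 counts and intervals that overlapped with its own in both libraries.

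**Figure D1:**
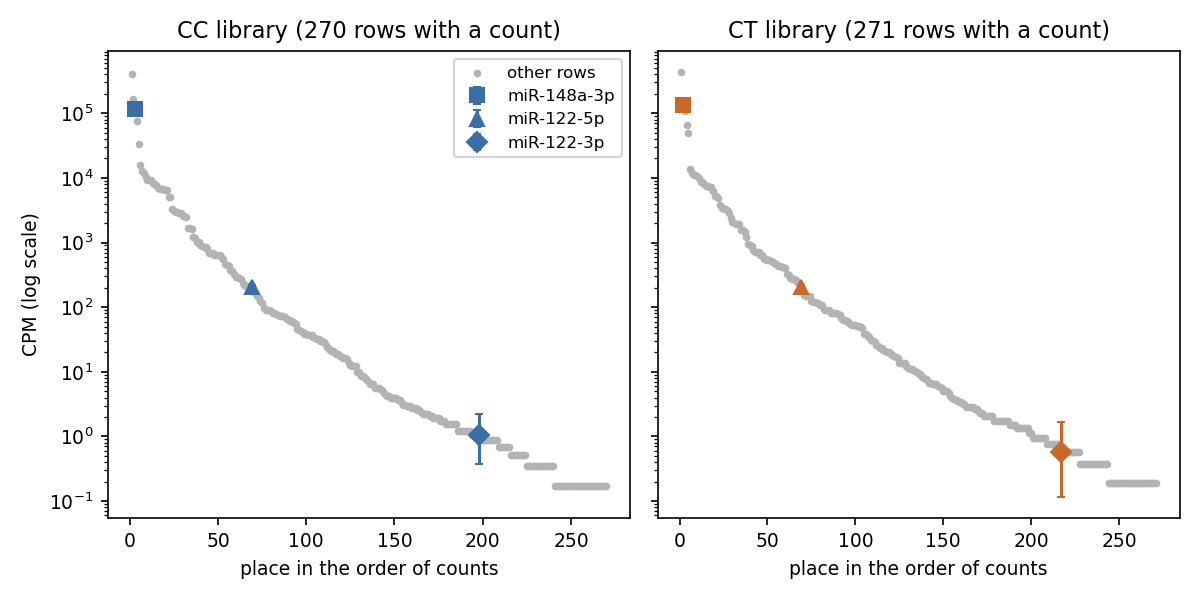
CPM on a log scale against the place in the order of counts for every row with a count, in CC (left, 270 rows) and CT (right, 271 rows); grey points are the other rows and error bars are exact 95% Poisson intervals. miR-148a-3p sits among the first 3 rows, miR-122-5p at place 69 in both panels, and miR-122-3p far down the tail with the widest interval of the 3.

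Set against each other within a library, the contrast between the gut-abundant and the hepatocyte miRNA does not depend on how the libraries are scaled. CC held 548 counts of miR-148a-3p for each count of miR-122-5p (interval 518 to 581). CT held 656 (618 to 696). The ratio was 1.20 times as large in CT as in CC (exact conditional interval 1.10 to 1.30). Ligation and amplification recover different miRNAs with different efficiency, so 548 and 656 are ratios of counts and not of molecules.

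Relative to other abundant miRNAs, the position of miR-148a-3p shifted in both directions. There were 0.282 counts of it for each count of miR-215-5p in CC and 0.312 in CT. For each count of miR-21-5p there were 1.49 in CC and 2.05 in CT. For each count of novel_1 there were 0.698 and 1.23. In each of these 3 cases the value was higher in CT. Against miR-194, which is also abundant in intestinal epithelium, the value went the other way, from 3.44 in CC to 2.71 in CT, and the intervals of the libraries did not overlap in any of the 4 cases.

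**Figure D2:**
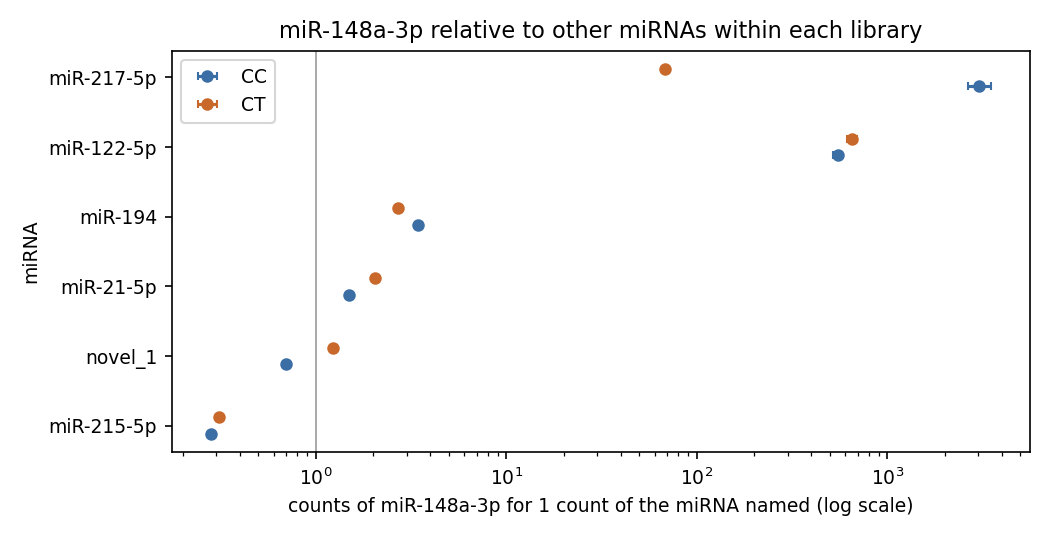
Counts of miR-148a-3p for 1 count of each named miRNA, on a log scale, in CC (blue) and CT (orange), with exact 95% intervals that are mostly narrower than the points. The points of CT lie to the right of CC for miR-215-5p, novel_1, miR-21-5p and miR-122-5p and to the left for miR-194 and miR-217-5p.

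Between the libraries, miR-148a-3p was 1.19-fold higher in CT (interval 1.18 to 1.19), a log2 ratio of 0.25. In these bulk samples a change in the number of cells of a type and a change in RNA per cell cannot be told apart. Only 2 of the 3 members reached the minimum of 50 counts, summed over CC and CT. Neither differed 2-fold or more (0 of 2), and 7.38% of the 149 miRNAs above that minimum did. With only 2 members, 0 of 2 cannot be told apart from that share. An interval that left out a ratio of 1 was found for 1 of the 2, against 68.5% of the 149, so at this depth such an interval is common. The 149 log2 ratios had a median of 0.02 and quartiles of -0.25 and 0.36, and the value of miR-148a-3p lay between these quartiles with 49 miRNAs above it and 99 below. In share of the library this was a gain of 2.13 percentage points, second to the 2.96 points of miR-215-5p, while novel_1 lost 5.40 points. Shares of a library sum to a fixed total, so these movements are linked by construction. Among the 10 most abundant rows 6 were higher in CT, and 3 of them, miR-194, miR-7 and miR-200b-3p, by a larger ratio than miR-148a-3p.

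For miR-122-5p the ratio of CT to CC was 0.992 (interval 0.913 to 1.08), a log2 ratio of -0.01. With the full library totals, this counting interval ran from 1.10-fold lower to 1.08-fold higher in CT. Its ends moved with the scaling. The low end was 0.856 with totals of chicken-named rows only. The high end was 1.12 with totals without the 10 most abundant miRNAs. The ratio of 0.992 stood near the middle of the table, with 79 of the 149 miRNAs above it and 69 below. Its direction depended on the scaling, since it came to 1.03 when the 10 leading miRNAs were removed from the totals and to 1.02 when miR-148a-3p was. miR-122-3p had a ratio of 0.547 with an interval from 0.0886 to 2.56, too wide to give a direction.

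The rows whose ratios were nearest to those of the main members differed from them in abundance. Among 81 other rows with at least 1000 counts, those nearest to miR-148a-3p were miR-23b-3p at 1.18-fold, miR-16-5p at 1.19-fold and miR-19b-3p at 1.20-fold, with 98.4 to 249 CPM. Those nearest to miR-122-5p were miR-2954, an avian miRNA that is more abundant in males, miR-20a-5p and miR-16c-5p, at distances of 0.015, 0.019 and 0.022 from it on the log2 scale. Likeness of a ratio over 2 libraries is a single number for each row, so many rows resemble each other in this way.

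Markers of neighbouring organs and of blood were set beside the members. All 4 miRNAs of the pancreatic acinar list were at least 2-fold higher in CT. Among all 149 miRNAs with at least 50 counts 9 were, and these 4 are part of the 9. The acinar list, chosen with earlier results of these data known, had a median log2 ratio of 5.57. For this median miR-216c, at 0 counts in CC, is set to the floor of 3 counts there, and miR-216a itself had 3 counts in CC. The rows of the acinar list had a summed level of 54.9 CPM in CC against 2563 CPM in CT. Of the islet and gut endocrine list, both miRNAs were higher in CT, miR-375 by 2.79-fold and miR-7 by 1.41-fold, with a median log2 ratio of 0.99. miR-217-5p, the most abundant of the acinar list, had a level of 37.6 CPM in CC and one of 1996 CPM in CT. miR-148a-3p, which in mammals is also found in pancreas, exceeded miR-217-5p 3042-fold in CC and 68.0-fold in CT. The gain of miR-148a-3p was 1.19-fold over the same libraries, and its ratio was the same to 2 decimals (1.19) when the acinar rows were removed from the totals. Those rows held 0.00549% of the CC counts and 0.256% of the CT counts, so their removal could hardly change a ratio. It concerns the scaling only and not the source of the miR-148a-3p reads. miR-122-5p, over the same libraries, had 209 and 207 CPM. Whether pancreatic tissue contributed to the miR-148a-3p value was not tested.

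The blood list, which includes red and white cells and was set beside the members because miR-122 circulates in plasma, was low in both libraries. Its rows had a summed level of 131 CPM in CC against 147 CPM in CT, from 4 of 5 names, with 2 of them at 50 counts or more and a median log2 ratio of -0.33 for these 2. miR-451, the main miRNA of red cells, had 10 counts in CC and 3 in CT. miR-144-3p, from the same red cell locus, had 9 and 7 counts. miR-223 of myeloid cells had 121 counts in CC and 56 in CT, and miR-142-3p, found across blood cells, had 374 and 429. The summed level also includes miR-142-5p, with 242 and 280 counts. miR-122-5p had more counts than each of these blood cell miRNAs in both libraries. Cell markers do not measure plasma, and the part of blood or of liver tissue in the miR-122-5p level was not tested.

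Other listed miRNAs give the scale of these values. By their more abundant arms, all 6 measured members of the intestinal epithelial list were higher in CT, as were 79 of all 149 miRNAs. The list had a median log2 ratio of 0.62, which includes miR-194 at 0.59 and miR-215-5p at 0.10. Among its other arms with at least 50 counts, miR-200a-5p was lower in CT, at a ratio of 0.916 (interval 0.871 to 0.964). The other was miR-200b-5p, at 1.09 (0.917 to 1.30). A list of miRNAs abundant in liver and also in other tissues had 14 with at least 50 counts. miR-148a-3p, itself abundant in mammalian liver and higher in CT, was not in that list. Of the 14, 5 were higher and 9 lower in CT, with a median log2 ratio of -0.12. None was at least 2-fold apart (0 of 14), against 7.38% of all 149, and 14 are too few to tell these shares apart. The 14 ranged from miR-126-3p, an endothelial miRNA, at -0.79 to miR-101-3p at 0.36. miR-22-3p, with levels of 322 CPM in CC and of 327 CPM in CT, and miR-30d, at 7958 and 8133 CPM, were the nearest of them to equality. The lists were chosen with earlier results of these data known, and the median of all 149 was 0.02.

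**Figure D3:**
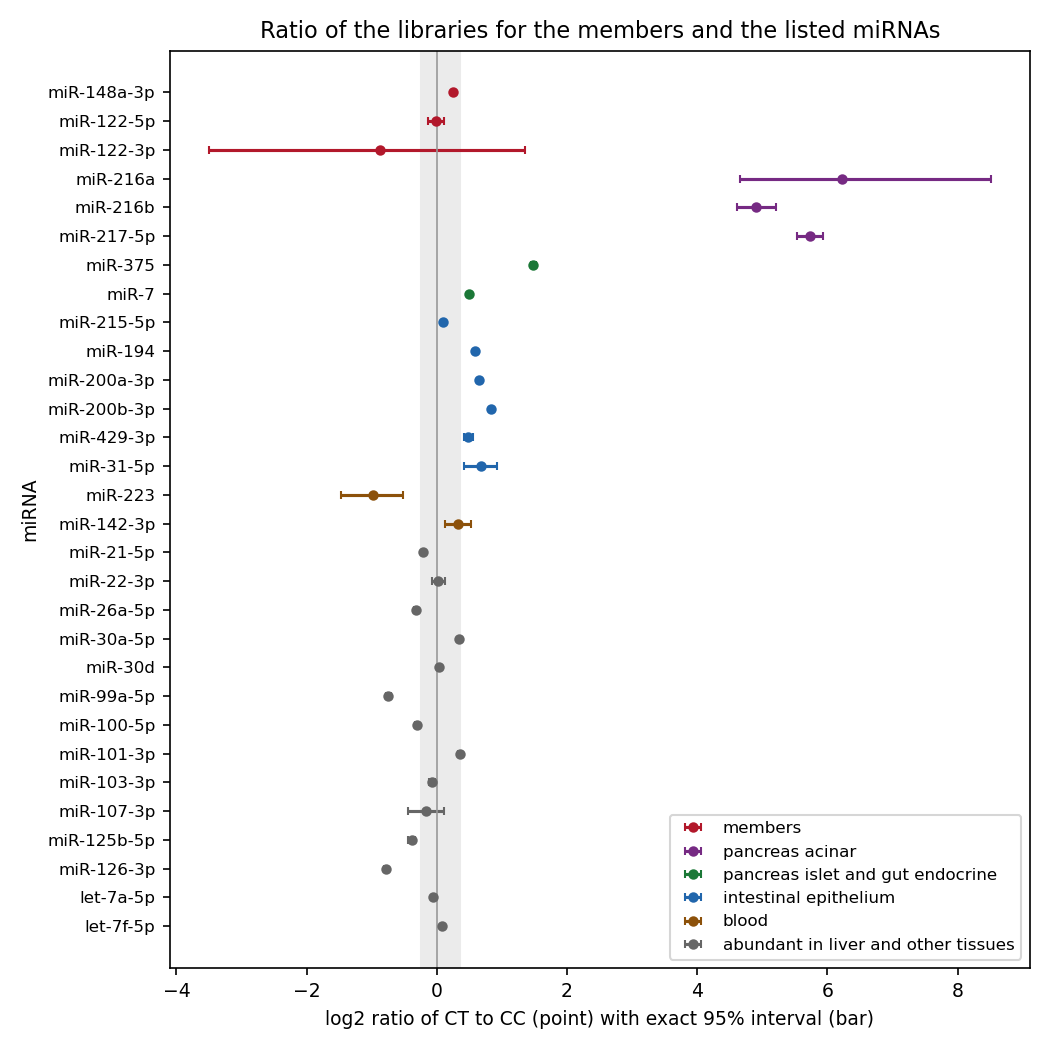
Log2 ratio of CT to CC with exact 95% intervals for the 3 members (red) and the listed miRNAs with at least 50 counts; the grey band marks the quartiles over 149 miRNAs (-0.25 to 0.36), and miR-216c, at 0 counts in CC, is not drawn. miR-148a-3p and miR-122-5p lie inside the band, and the acinar miRNAs lie at 4.91 or more.

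Nearly all reads of the miR-122 hairpin came from its 5p arm. In CC 1204 of 1210 counts were 5p, or 99.5% (interval 98.9 to 99.8%). In CT 1091 of 1094 were, or 99.7% (99.2 to 99.9%). The intervals overlapped, so no difference in arm use was detectable at this depth. The 5p arm had 201 counts for each count of the 3p arm in CC and 364 in CT, and these ratios rest on the 6 and 3 counts of the minor arm. Both arms were listed, with 50 counts or more in all, for 70 hairpins, and among these miR-122 stood at place 27 by the share of its more abundant arm, 99.6% over both libraries. The median of the 70 was 99.4%, and the lowest value was 50.4%. The 5p arm was the more abundant one in 44 of the 70. Arm use of miR-148a could not be compared, since 1 of its arms was measured. Of the 167 hairpins with chicken names, 88 had 1 listed row. That is a count of rows for each hairpin, and an arm may be listed under another copy of it.

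**Figure D4:**
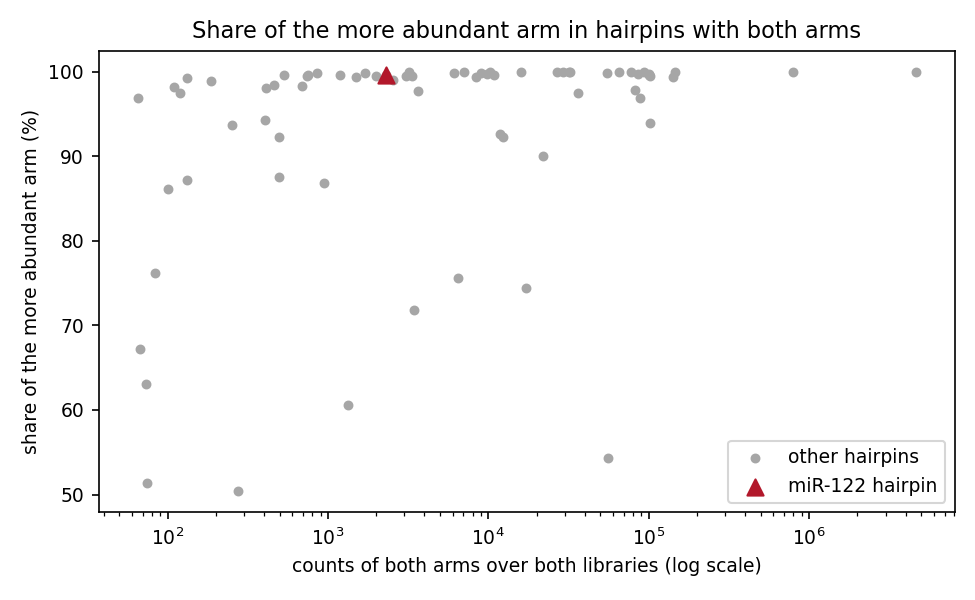
Share of the more abundant arm in percent against the counts of both arms over both libraries (log scale) for 70 hairpins; each point is a hairpin. The miR-122 hairpin (red triangle) lies at 99.6%, within the dense group of hairpins near the top.

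The 7 letters of the miR-148a-3p seed, CAGUGCA, also occurred in other rows at other places. This was looked for after the values were seen, on the mature strand only, and concerns which rows hold part of the same word. Counting miR-148a-3p, 8 of the 288 rows held it, or 2.78%. In 5 of them, miR-130a-3p, miR-130b-3p, miR-130c-3p, miR-301a-3p and miR-301b-3p, it stood at bases 1 to 7, which sets their own seed 1 base further along. In miR-17-5p and miR-106-5p it stood at bases 12 to 18, outside the seed. The most abundant row of each kind is shown with the shared letters in capitals.
miR-130b-3p: CAGUGCAauaaugaaagggcgu
miR-17-5p: caaagugcuuaCAGUGCAgguagu

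miR-148a-3p accounted for nearly all counts of rows with these letters. The 5 rows that begin with them had 6079 counts together in CC and 5112 in CT, so that miR-148a-3p exceeded them 109-fold in CC and 140-fold in CT. miR-130b-3p held most of these, with 5988 counts in CC and 5018 in CT, and its ratio of CT to CC was 0.917 (interval 0.883 to 0.953). miR-148a-3p at 1.19 and miR-130b-3p at 0.917 thus lay on opposite sides of 1, in single libraries. The other rows with the letters did not all go 1 way. miR-17-5p at 1.05 (0.974 to 1.12) and miR-106-5p at 1.10 (1.02 to 1.20) were above 1. So were miR-130a-3p at 1.24, miR-130c-3p at 1.06 and miR-301a-3p at 1.37, while miR-301b-3p was below it at 0.758. The intervals of these last rows, with at most 34 counts in a library, all included 1. A shared word describes the sequences and does not show that any messenger RNA was bound.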

How the data were processed

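Per the labels' protocols, Trizol was used to extract total RNA, and fragments of 20 to 30 nt were cut from a 15% TBE-urea gel loaded with 10 µg, before standard Illumina library preparation. Per the file headers, the authors deposited read counts and TPM for each mature miRNA of 2 libraries. The deposited TPM equals the count over the library total times 1000000 within 4.31e-05, with no length term, and is called CPM here. The sources used here name no aligner, database release or genome build. Rows carry chicken names, and a duck sequence that differs from the chicken one may lose reads in the assignment.

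Shares have exact binomial, levels exact Poisson and ratios exact conditional intervals (Python 3.11.15, scipy 1.17.1, pandas 2.3.3, numpy 2.4.6; figures matplotlib 3.10.9), checked on simulated counts. In summaries of the log2 ratios (medians, quartiles, order and list counts), a count of 3 stood for 0 in CC. This floor equals 0.520 CPM in CC and 0.569 in CT. A row with 0 counts in CC was given no ratio of its own. With 1 library per condition there was no test between conditions. Hairpins were folded with ViennaRNA 2.7.2. Alternatives used TMM factors (edgeR 4.0.16) and size factors (DESeq2 1.42.0) in R 4.3.3. Named miRNAs were the members, the 2 neighbours on each side in mean CPM, rows sharing a seed, the 3 rows nearest in ratio with at least 1000 counts, and listed markers with at least 50 counts, each by its more abundant arm. Rows named outside this rule were chosen after their values were seen. Members and lists were chosen with earlier results of these data known. miR-486, miR-192 and miR-143 matched no row name.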

Additional observations from a re-analysis of the deposited data

How the results depend on the processing

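With 1 library per condition, neither leaving out a replicate nor a paired fit could be had. No paired analysis was possible because each condition has a single library. The ratio of miR-148a-3p stayed above 1 in all 7 alternatives, at 1.15 with TMM factors, 1.13 with size factors, 1.24 with totals without the 10 most abundant miRNAs, 1.11 with totals of chicken-named rows only and 1.22 with totals without miR-148a-3p. Totals without the miR-216 and miR-217 rows were chosen after seeing the data. The ratios of miR-122-5p (0.930 to 1.03) and miR-122-3p stayed inside their counting intervals. With chicken-named rows as the denominator, miR-148a-3p took 13.9% of CC and 15.4% of CT and miR-122-5p 0.0253% and 0.0235%. With miR-148a-3p kept in the total and the rest of the 10 most abundant miRNAs left out, miR-148a-3p took 43.0% of CC and 48.3% of CT. With all 10 left out, miR-148a-3p among them, miR-122-5p took 0.138% and 0.142%, and miR-122-3p 0.000686% and 0.000391%. The ratio of 1.24 for miR-148a-3p also used totals without all 10. The share of miR-148a-3p thus has a different total and cannot be set against those of miR-122. Among chicken-named rows, miR-148a-3p ranked 2 in CC and 2 in CT, miR-122-5p 62 and 62, and miR-122-3p 173 and 192. Among the 149 miRNAs with at least 50 counts, 11 differed 2-fold or more. This became 46 when any row with a count in both libraries was used, 3 when 500 counts were required and 33 under a 1.5-fold rule. The number of rows considered changed with the minimum, so these are counts and not shares. Summing all listed arms gave ratios of miR-148a to miR-122 of 546 in CC and 654 in CT, within the counting intervals. This could move little, since miR-122-3p added 6 and 3 counts. No other row had the seed of a member, so summing rows by seed could not change the ratio. No other row contained an arm of miR-122 or lay within it, so adding such rows could not change the arm share. Depth limits miR-122-3p, with 6 and 3 counts. For miR-148a-3p the planned scalings moved the ratio beyond its counting interval, and the spread between birds was not measured.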
